A study of Mus musculus with 2 samples.

Results

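The nuclei described here were 239 of the 10800 nuclei of a control library of mouse hippocampal neurons, and they were picked by the UMIs (unique molecular identifiers, 1 for each captured RNA molecule) of 11 genes. Each had at least 1 UMI of Vwc2l, a UMI of at least 2 of 6 panel genes (Tshz2, Kcnh8, Sntb1, Olfm3, Cntn6 and the non-coding RNA Gm26883), and none of Gad1, Gad2, Glis3 or Trps1. They made up 2.21% of the control nuclei (95% exact binomial interval 1.94% to 2.51%), and 11879 nuclei were deposited in all. They were set against the 10561 other control nuclei and against 115 control nuclei with a UMI of at least 3 of Foxp2, Rai14, Hs3st5, Rorb and Hs3st2 and none of Vwc2l, called the Foxp2 nuclei.

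Neuronal nuclei of the hippocampus were sorted by flow cytometry from C57/Bl6 mice at postnatal day 75 and their nuclear RNA was sequenced on the 10x Chromium V2 platform. The control library pooled 1 male and 1 female wild-type mouse, with 42183289 UMIs and a median of 3574.5 a nucleus. The other library, enriched for nuclei of IL-33 expressing neurons, held 1079 nuclei and 3650504 UMIs, with a median of 2973 a nucleus. It is labelled as 1 female mouse heterozygous for Il33-H2B-mCherry, a reporter that marks nuclei of cells expressing the Il33 gene, although male as well as female nuclei are mentioned for its raw data. Each group was 1 library, so no comparison below has replicates or a test, and every interval covers counting error only. The 2 libraries shared 24 cell barcodes. Predicted doublets were kept, and 4 of the 239 nuclei were predicted doublets, against 328 of all 10800.

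Vwc2l encodes a secreted protein with von Willebrand factor C domains, a fold shared with extracellular binders of bone morphogenetic proteins. Tshz2 encodes a teashirt zinc finger transcription factor. In the neocortex these genes are known from near-projecting neurons, excitatory cells of the deep layers whose axons stay local. Of the other panel genes, Kcnh8 encodes a voltage-gated potassium channel, Sntb1 a syntrophin that links the dystrophin complex to membrane proteins, Olfm3 a secreted olfactomedin and Cntn6 a contactin, an adhesion protein of axons. Gad1 and Gad2 encode the enzymes that make GABA, and Glis3 and Trps1 encode zinc finger proteins.

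Vwc2l (ENSMUSG00000045648) lies at chr1:70725715-70885397 on the plus strand of GRCm38, and Tshz2 (ENSMUSG00000047907) at chr2:169633013-170071816 on the plus strand. Gm26883, a lincRNA at chr2:169633646-169888503 on the minus strand, lies inside the span of Tshz2 on the opposite strand. The sources used here do not state whether reads were counted by strand, so reads of Tshz2 and Gm26883 may not be told apart and the 2 panel genes are uncertain as separate evidence. The promoters of the 2 genes that name the set are printed here, from RefSeq on build GRCm38.p6, from 250 bases before to 50 bases after the start of transcription, read in the direction of the gene. They are given since the 2 genes were found together in the same nuclei, and capitals mark CAGATG, an E-box letter string of the kind bound by neuronal basic helix-loop-helix factors. The first window is chr1:70725465-70725764 and the second chr2:169632259-169632558, both on the plus strand. The second ends before the start of Tshz2 given above, which is from GENCODE, so the 2 sources place that start differently.
Vwc2l: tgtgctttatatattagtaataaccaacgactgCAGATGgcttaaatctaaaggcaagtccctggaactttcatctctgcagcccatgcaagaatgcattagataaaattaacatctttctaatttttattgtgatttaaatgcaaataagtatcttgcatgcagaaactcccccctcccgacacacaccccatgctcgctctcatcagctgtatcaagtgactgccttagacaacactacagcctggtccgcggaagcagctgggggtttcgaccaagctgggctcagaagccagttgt
Tshz2: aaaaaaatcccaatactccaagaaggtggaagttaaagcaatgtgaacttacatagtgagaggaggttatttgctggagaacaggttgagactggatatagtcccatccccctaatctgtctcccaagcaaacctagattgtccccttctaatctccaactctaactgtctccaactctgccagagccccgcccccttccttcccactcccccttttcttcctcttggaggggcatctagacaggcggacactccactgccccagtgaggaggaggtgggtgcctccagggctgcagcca
The Vwc2l window held 1 match and the Tshz2 window none. On both strands (CAGATG or CATCTG), 5635 of 32851 RefSeq promoters of the same 300 bases held a match, which is 17.2%. GC content was 44.3% in the Vwc2l window and 52% in the Tshz2 window, against a median of 52.7% over those promoters.

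The rule did not pick 1 kind of nucleus. All control nuclei were clustered on 2000 variable genes without the genes of the rule, the genes that define the Foxp2 nuclei, and sex-linked and mitochondrial genes, which gave 23 clusters numbered by size. Cluster 10, of 323 nuclei, held 109 of the 239 nuclei (45.6%, 39.2% to 52.2%). Cluster 8, of 490 nuclei, held 65 (27.2%), and cluster 11, of 314 nuclei, held 30 (12.6%). The other 35 were spread over clusters 22, 7, 13 and others, with 11 in cluster 22, and 10 clusters held none. The cluster with most of the nuclei also held 109 at clustering resolutions of 0.4 and 1.6 and with 30 neighbours. The nuclei with more panel genes lay mostly in cluster 10: of the 91 with at least 4 panel genes, 85 were there.

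**Figure D1:**
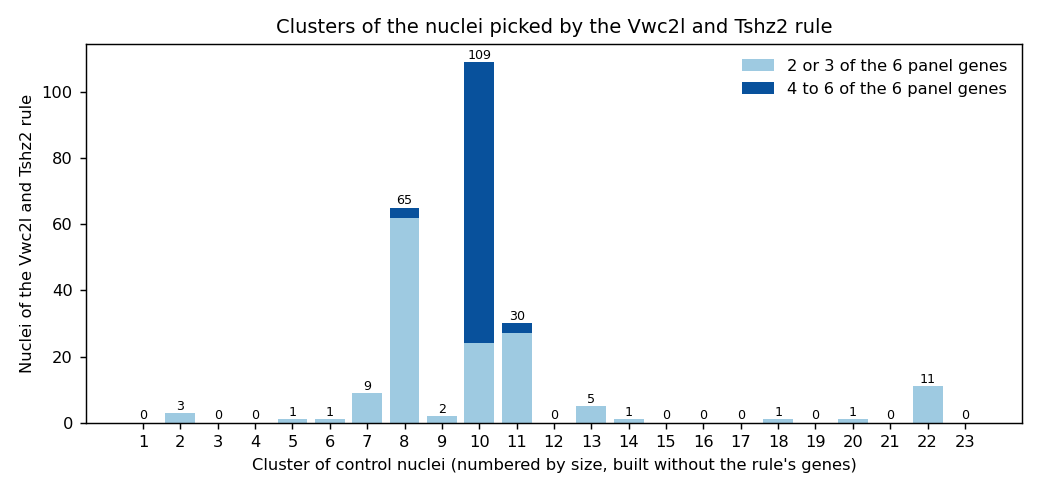
Number of nuclei of the Vwc2l and Tshz2 rule (vertical axis) in each of the 23 clusters of control nuclei (horizontal axis), split by how many of the 6 panel genes had a UMI. Cluster 10 held 109 and nearly all nuclei with 4 to 6 panel genes, while the 65 in cluster 8 and the 30 in cluster 11 mostly had 2 or 3.

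Markers of cortical neurons that the rule did not use differed between these clusters. Hs3st4, a heparan sulfate sulfotransferase found in deep-layer neurons, was at 4017 CPM (counts per 1000000, the UMIs of a gene over all summed UMIs of the group) in the 109 nuclei of cluster 10 and at 3807 CPM in the 30 of cluster 11. In the 65 of cluster 8 it was at 303 CPM, below the 1045 CPM of the other control nuclei. Tle4, a corepressor of deep-layer neurons, followed the same order at 399, 380 and 55.1 CPM, against 97.9 CPM in the other control nuclei. Bcl11b, a zinc finger factor of deep-layer and some hippocampal neurons, was at 396 CPM in cluster 10, 163 CPM in cluster 11 and 55.1 CPM in cluster 8. Cux2, a homeobox factor of upper-layer neurons, ran the other way, with 174 CPM in cluster 8, 2.87 CPM in cluster 10 and 0 UMIs in cluster 11.

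Hs3st4 and Tle4 were thus high in the members of clusters 10 and 11 and low in those of cluster 8, whose markers go against the name of deep cortical nuclei. In the 30 members of cluster 11 other deep-layer markers were not above the other control nuclei: Bcl11b was at 163 against 207 CPM, near-projecting markers summed to 727 against 1034 CPM and layer 5 extratelencephalic markers to 325 against 369 CPM, and Fezf2, Rprm, Ntsr1, Syt6 and Ctgf had no UMI. Of the layer 6 corticothalamic markers, Syt6, Ctgf, Ntsr1 and Osr1 had no UMI in the 109 members of cluster 10 either. The whole set is therefore called the Vwc2l and Tshz2 nuclei here, with no cell type name. Of 14 markers listed for near-projecting neurons that the rule did not use, 8 passed the floor on low values explained below, and Htr2c, a serotonin receptor, was the 1 of these at least 2-fold above the other control nuclei. Slc17a8, a defining vesicular glutamate transporter of that list, had 0 UMIs in the 239 nuclei. In the 109 nuclei of cluster 10 the summed level of these 14 markers was 1904 CPM, against 654 CPM in the 130 elsewhere and 1034 CPM in the other control nuclei. Over all 239 nuclei the layer 6 corticothalamic markers outside the rules summed to 2627 CPM against 1171 CPM, most of it Hs3st4, with Syt6, Ctgf and Osr1 at 0. Layer 5 extratelencephalic markers summed to 381 CPM against 369 CPM, and intratelencephalic markers to 1619 CPM against 2874 CPM. In the members of cluster 8 the intratelencephalic markers, which include Cux2, summed to 2832 CPM, no higher than the other control nuclei, and Lhx2 had no UMI. Of the layer 6b markers, Cplx3, Nxph4, Ctgf and Trh had no UMI, and of the subiculum markers Nts and Dlk1 had none. The 8 subiculum markers outside the rule summed to 138 CPM against 57.9 CPM in the other control nuclei, with 126 CPM in the members of cluster 10.

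Markers of other cells were summed over the 239 nuclei and over the members of each cluster. The 11 GABA interneuron markers outside the rule summed to 1241 CPM against 3152 CPM in the other control nuclei, and Slc32a1, the vesicular GABA transporter, was at 0. The granule-like nuclei had 3187 CPM of the same list, so the sum is not particular to interneurons. The 8 dentate granule markers outside the rule summed to 217 CPM against 529 CPM. Astrocyte markers summed to 195 CPM against 246 CPM, with Aqp4, Gja1 and Gli3 at 0, but to 450 CPM in the members of cluster 8, and oligodendrocyte markers to 82.8 CPM against 143 CPM, with Mag and Prr5l at 0. Oligodendrocyte precursor markers summed to 499 CPM against 845 CPM with Pdgfra, Olig1, Olig2 and Cspg4 at 0. Microglial markers summed to 17.1 CPM against 16.3 CPM and endothelial and mural markers to 7.31 CPM against 6.04 CPM. CA1 pyramidal markers summed to 3550 CPM against 5359 CPM, but to 5727 CPM in the members of cluster 11. CA3 pyramidal markers summed to 1108 CPM against 1175 CPM, but to 1525 CPM in the members of cluster 10. Pan-excitatory markers summed to 858 CPM against 1208 CPM, with none at 0. The part of these cell types in the results below was not tested.

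The zero demanded of Trps1 and Glis3 removed more nuclei than the rule kept. A UMI of Vwc2l was found in 1836 control nuclei (17%, 16.3% to 17.7%), and 889 of them also had at least 2 panel genes. Of these 889, 650 (73.1%, 70.1% to 76.0%) had a UMI of an excluded gene: 552 of Trps1, 195 of Glis3, 76 of Gad2 and 63 of Gad1. In 366 of the 650 Trps1 was the only excluded gene, and 531 of the 650 had neither Gad gene. Trps1 had a UMI in 6887 of all 10800 control nuclei (63.8%), and in at least 50.6% of the nuclei of every cluster. Glis3 had one in 4312 (39.9%), from 15.3% of cluster 5 to 84.3% of the granule-like cluster 3.

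Cluster 10 shows what the exclusion did to 1 profile. Of its 323 nuclei, 317 had a UMI of Vwc2l, all 317 also had at least 2 panel genes, and 208 of the 317 were removed by an excluded gene. Genes outside the rule were at similar levels in the 208 removed nuclei and the 109 kept ones: Sgcd at 6676 and 7389 CPM, Hs3st4 at 3958 and 4017 CPM, and Mcc at 470 and 442 CPM. Kcnip1 was at 509 CPM in the removed and 639 CPM in the kept nuclei, and Htr2c at 787 and 651 CPM. The removed nuclei were deeper, with a median of 3532 UMIs against 3007. They count among the 10561 other control nuclei, and not among the Foxp2 nuclei.

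Vwc2l and its panel had the following levels, which chose the nuclei and are given as a description. Vwc2l was at 1201 CPM in the 239 nuclei, with a median of 3 and up to 19 UMIs a nucleus, against 86.3 CPM in the other control nuclei. Tshz2 was at 2364 CPM with a UMI in 87.4% of the nuclei, a median of 8 and up to 27 UMIs, against 242 CPM in the others. Olfm3 had a UMI in 70.7% of the nuclei, Cntn6 in 58.2%, Gm26883 in 54.4%, Sntb1 in 42.3% and Kcnh8 in 20.1%. In the Foxp2 nuclei the shares were 63.5% for Olfm3, 38.3% for Sntb1 and 28.7% for Cntn6. They were 17.4% for Tshz2, 3.48% for Gm26883 and 1.74% for Kcnh8. Olfm3 and Sntb1 thus differed little by share of nuclei. Within the set the levels were uneven. Kcnh8 was at 350 CPM in the members of cluster 10 and 27.5 CPM in those elsewhere, and Sntb1 at 467 against 57.2 CPM. Olfm3 was at 1299 against 286 CPM and Cntn6 at 1150 against 220 CPM. Tshz2 differed less, at 3269 against 1696 CPM, and in the 65 members of cluster 8 it was at 2323 CPM.

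Counted over whole clusters, with no selection by the rule, each of the 7 genes was found in at least 41.5% of the nuclei of cluster 10. Vwc2l had a UMI in 98.1% of the nuclei of cluster 10, 95.7% of the 46 nuclei of cluster 22, 65.5% of cluster 8 and 37.3% of cluster 11. Tshz2 had one in 97.8% of cluster 10, 99.4% of cluster 8, 100% of cluster 22 and 34.1% of cluster 11. Sntb1 was found in 78.6% of cluster 10, and the next highest share was 35.7%, in cluster 11. Kcnh8 was found in 41.5% of cluster 10, 0.612% of cluster 8 and at most 21.1% of any other cluster, cluster 19. Olfm3 was found in 91.0% of cluster 10 and 68.2% of cluster 11, and Cntn6 in 70.0% of cluster 10 but in 72.4% of cluster 18. Cluster 13, led by Fn1, had Tshz2 in nearly all nuclei but Vwc2l in 8.39%, so the pair did not always go together.

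The 3482 granule-like nuclei of clusters 1 and 3 give a reference for how often a UMI of these genes occurs in nuclei of another kind, free RNA included. Vwc2l had a UMI in 6.43% of them and Tshz2 in 8.82%, at a median of 2677 UMIs against 3381 in cluster 10. Olfm3 had one in 21.5% and Cntn6 in 13% of the granule-like nuclei, the highest shares of the 6 panel genes there, so a UMI of these separates nuclei less than one of Kcnh8 (1.29%) or Gm26883 (1.55%). With every nucleus thinned to 1700 UMIs, Vwc2l remained in 88.5% of cluster 10 and 4.16% of the granule-like nuclei.

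**Figure D2:**
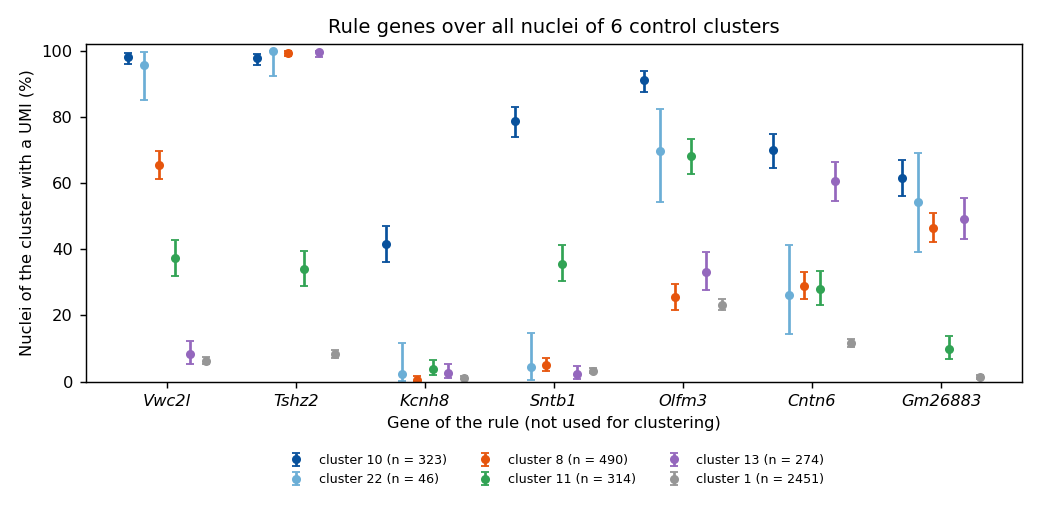
Share of all nuclei of a cluster with a UMI of each of the 7 rule genes (vertical axis, percent) in 6 control clusters, with 95% exact binomial intervals. Tshz2 was near 100% in clusters 10, 22, 8 and 13, whereas Kcnh8 and Sntb1 were highest in cluster 10, at 41.5% and 78.6%.

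The number of panel genes in a nucleus went with genes the rule did not use. Among Vwc2l nuclei with no excluded gene, 52 had no panel gene, 106 had 1 (just outside the rule), 83 had 2 (just inside), 65 had 3, 36 had 4, 39 had 5 and 16 had 6. Of the 106 just outside none lay in cluster 10, and of the 83 just inside 4 did (4.82%), against 20 of 65 (30.8%) with 3 panel genes, 32 of 36 with 4 and 37 of 39 with 5. All 16 nuclei with 6 panel genes were in cluster 10. Median depth ran from 3036 to 3300.5 UMIs a nucleus over the groups with 1 to 6 panel genes and was 3826.5 in the group with none.

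Kcnip1, a calcium-binding subunit of A-type potassium channels, was at 66.8 CPM just outside the rule and 54.5 CPM just inside it. It then stood at 133 CPM with 3 panel genes, 470 CPM with 4, 732 CPM with 5 and 836 CPM with 6. Sema5b, a transmembrane axon guidance protein, stood at 2.67, 40.9, 92.8, 256, 316 and 319 CPM over 1 to 6 panel genes. Tle4 stood at 90.8 CPM with 1 panel gene and 518 CPM with 6. Other genes had their highest level at 2 or 3 panel genes. Pdzrn3, a ubiquitin ligase with PDZ domains, was at 453 CPM with 2 and 460 CPM with 3, against 159 CPM with 6. Npsr1, the receptor for neuropeptide S, was at 235 CPM with 2 panel genes, 217 CPM with 3 and 0 UMIs with 5 or 6. Nuclei with 4 or more panel genes thus had the higher levels of Kcnip1, Sema5b and Tle4, and those with 2 or 3 the higher levels of Pdzrn3 and Npsr1, the first 2 of the leading genes of cluster 8.

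**Figure D3:**
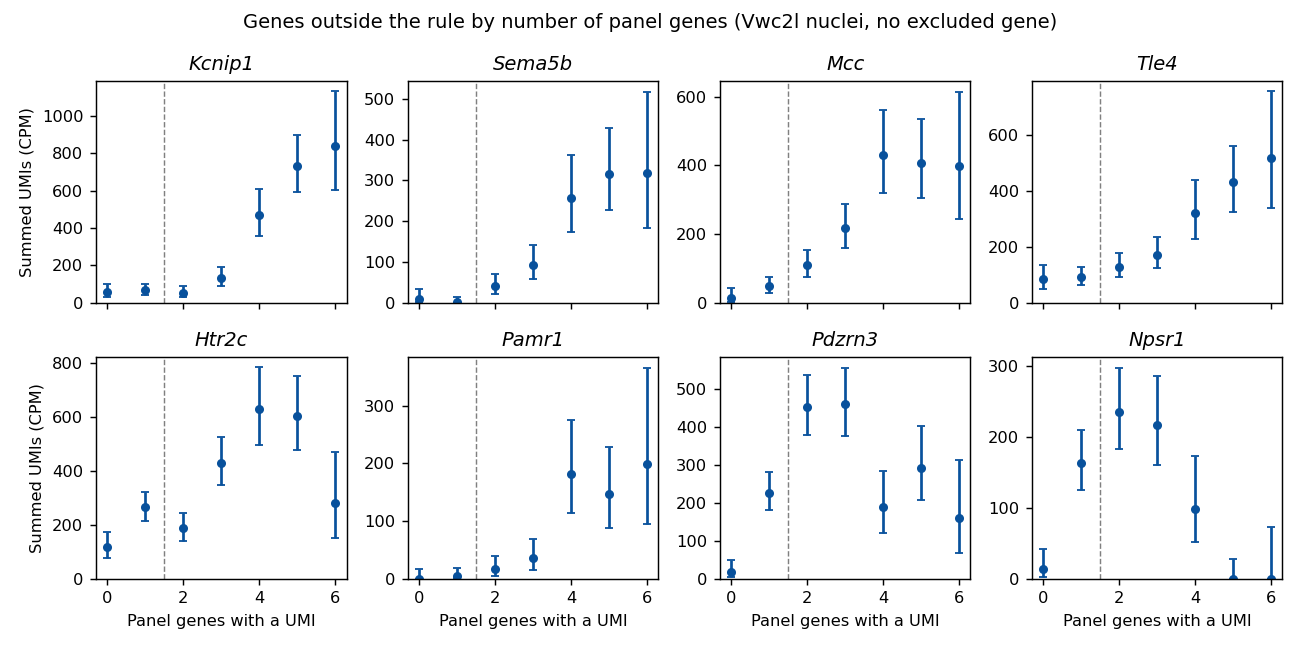
Summed level in CPM (vertical axis of each panel) of 8 genes outside the rule in Vwc2l nuclei without an excluded gene, by number of panel genes with a UMI (horizontal axis, 0 to 6), with 95% Poisson counting intervals; the dashed line is the rule's limit. Kcnip1, Sema5b, Mcc and Tle4 were highest with 4 to 6 panel genes, and Pdzrn3 and Npsr1 with 2 or 3.

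Against all other control nuclei, the largest ratios outside the rule included the secreted protein gene Pamr1, the non-coding RNA Rmst and the ubiquitin ligase gene Pdzrn3. A gene was compared when its mean level over both groups would give at least 20 UMIs in the smaller group, 24.4 CPM here, and 4721 genes passed. Of these, 129 were 2-fold or more higher in the Vwc2l and Tshz2 nuclei, which is 2.73%, and 125 were 2-fold or more lower, which is 2.65% (5.38% in either direction). The counts leave out the genes of the rule and those that define the Foxp2 nuclei. Of the 129, 37 passed the floor only through their level in the picked nuclei, so they had to differ. Likewise 40 of the 125 lower genes passed only through the other nuclei. The median log2 ratio over all genes tested was 0.00. Of the 129, 112 were also 2-fold or more higher in the 109 members of cluster 10 alone, 73 in the 130 members elsewhere alone and 56 in both. The 129 were called on the sum of both subsets, so these counts do not show how far the subsets agree. Called alone, the members of cluster 10 gave 155 higher genes of 2540 tested. The members elsewhere gave 75 of 3204.

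Genes outside the rule with the largest ratios were of 3 kinds by where they were high, a grouping made after their values were seen. The first were over 2-fold higher in the members of cluster 10 than in the other members. Pamr1, Kremen1, Skap1, Hivep1 and Whrn here, and Bmper, Adamts16, Atp10a and Grm4 in the third kind, passed the floor only through the picked nuclei. Pamr1, a secreted protein with a peptidase-like domain, was at 78.0 CPM against 6.79 CPM in the other nuclei, a ratio of 11.5 (8.61 to 15.1), with 163 CPM in cluster 10 and 14.8 CPM in the other members. Sema5b was at 147 against 27.2 CPM, a ratio of 5.41 (4.45 to 6.53), from 307 CPM in cluster 10 and 29.6 CPM elsewhere. Klhl1, an actin-binding kelch protein, had a ratio of 5.24 (4.34 to 6.28), with 324 CPM in cluster 10 and 36.0 CPM elsewhere. Plcb4, a phospholipase C that acts below G protein coupled receptors, had a ratio of 5.42 (4.57 to 6.39), with 381 and 53.0 CPM. Skap1, an adaptor of Src family kinases, had a ratio of 4.46, with 120 and 14.8 CPM. Kremen1, a receptor for Dickkopf proteins that restrains Wnt signalling, had a ratio of 5.42 (3.69 to 7.74), and 33 of its 34 UMIs were in cluster 10. Kcnip1, whose span on chromosome 11 overlaps Kcnmb1 and Gm12120 on the opposite strand, was at 292 against 69.1 CPM, a ratio of 4.23 (3.69 to 4.83). It reversed outside cluster 10, where 36.0 CPM was below the other control nuclei. Mcc, a gene first described as mutated in colorectal cancer, had a ratio of 5.11, with 442 and 110 CPM. Hivep1, a zinc finger transcription factor, had a ratio of 4.30, with 132 and 61.4 CPM, and was at 97.3 CPM in the Foxp2 nuclei, no lower than its 91.4 CPM in all 239 nuclei. Whrn, a scaffold protein with PDZ domains, had one of 4.29, with 66.0 and 23.3 CPM.

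The second kind was over 2-fold higher in members outside cluster 10 than in those of cluster 10, though both genes were also above the other control nuclei in the members of cluster 10. Pdzrn3 was at 373 against 60.0 CPM, a ratio of 6.21 (5.50 to 6.99), with 964 CPM in the members of cluster 8, 212 CPM in those of cluster 10 and 32.5 CPM in those of cluster 11. Npsr1 was at 158 against 29.9 CPM, a ratio of 5.29 (4.38 to 6.34), with 399 CPM in cluster 8, 60.2 CPM in cluster 10 and 32.5 CPM in cluster 11. It had UMIs in 18.0% of the 239 nuclei. Both genes are among those that lead cluster 8 as a whole.

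The third kind was within 2-fold between the 2 subsets. Rmst, a long non-coding RNA of neural cells, was at 486 against 65.6 CPM, a ratio of 7.41 (6.65 to 8.23), with 436 CPM in the members of cluster 10, 624 CPM in cluster 8 and 727 CPM in cluster 11. It was at 577 CPM in the Foxp2 nuclei, above its level in the 239 nuclei (log2 -0.25). Bmper, a secreted binder of bone morphogenetic proteins with von Willebrand factor C domains, was at 98.7 against 18.2 CPM, a ratio of 5.42 (4.25 to 6.82), with 94.6 CPM in cluster 10 and 101.7 CPM elsewhere. Adamts16, a secreted metalloprotease, had a ratio of 5.99 (4.43 to 7.96), with 80.3 and 55.1 CPM. Cobl, an actin nucleator, had a ratio of 4.48, with 175 and 233 CPM, and Atp10a, a phospholipid flippase, one of 5.06, with 51.6 and 65.7 CPM. Against the Foxp2 nuclei the ratio of Adamts16 was 1.45 (0.856 to 2.56), at 65.8 against 45.2 CPM. That of Cobl was 1.26 (0.954 to 1.68), at 208 against 165 CPM. Grm4, a metabotropic glutamate receptor gene, had a ratio of 5.39, with 63.1 and 31.8 CPM.

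**Figure D4:**
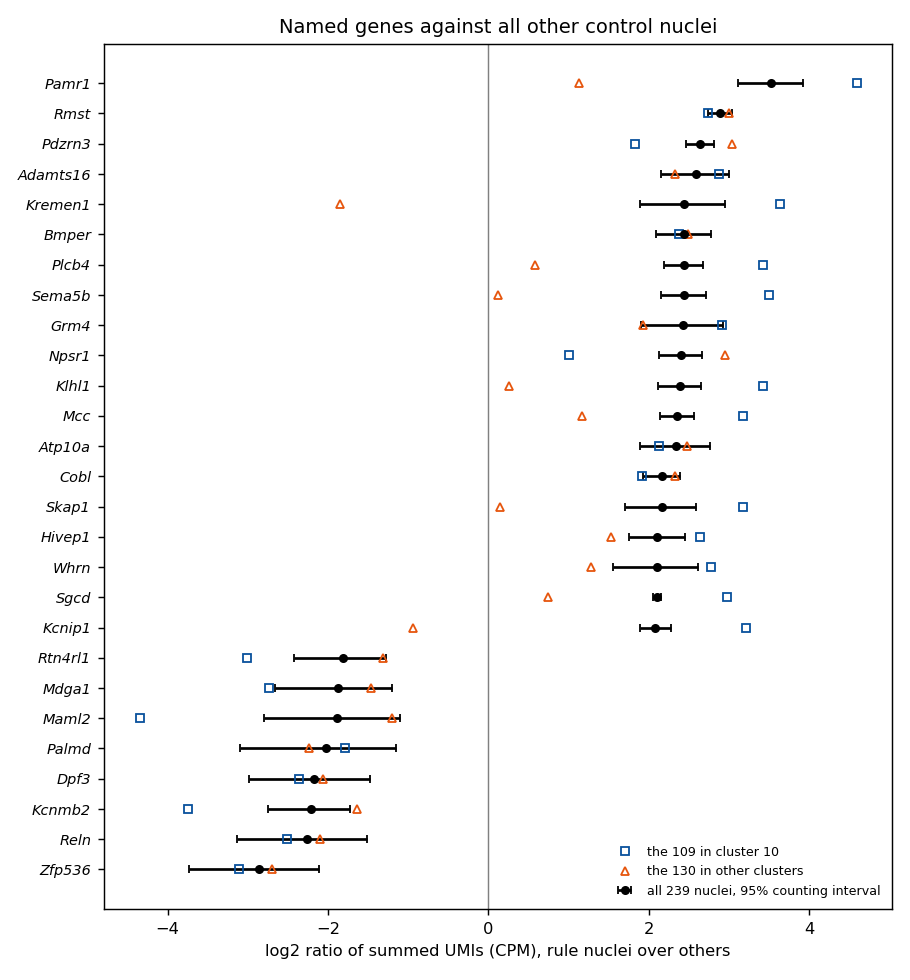
Log2 ratio of summed UMIs (horizontal axis) of 19 of the 20 highest and the 8 lowest named genes in the Vwc2l and Tshz2 nuclei over all other control nuclei; points are all 239 nuclei with 95% counting intervals, squares the 109 in cluster 10 and triangles the 130 in other clusters. Kremen1 and Kcnip1 lie above 0 in cluster 10 and below 0 elsewhere, while Rmst and Bmper have all 3 marks close together.

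The genes with the lowest ratios were below the other control nuclei in both subsets. Except Kcnmb2 and Rtn4rl1, they passed the floor only through the other control nuclei. Zfp536, a zinc finger repressor, was at 17.1 against 124 CPM (log2 -2.86, -3.74 to -2.12). Reln, the secreted glycoprotein reelin, was at 17.1 against 81.8 CPM (log2 -2.26), and both genes were at 14.3 CPM in cluster 10 and 19.1 CPM elsewhere. Kcnmb2, a subunit of calcium-activated potassium channels, was at 41.4 against 192 CPM (log2 -2.21), with 14.3 and 61.4 CPM. All 3 are among the leading genes of GABA interneuron-like clusters 6 or 12, and the part of interneurons in their ratios was not tested. Dpf3 was at 19.5 against 88.4 CPM and Palmd at 12.2 against 49.7 CPM. Maml2, a coactivator of Notch, Mdga1, an inhibitor of neuroligins, and Rtn4rl1, a relative of the Nogo receptor, had log2 ratios of -1.88, -1.88 and -1.82. Maml2 is also among the leading genes of granule-like cluster 1, which held none of the 239 nuclei.

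Lists of genes by function were counted next, without the genes of the rule, against the shares of 2.73% higher and 2.65% lower over all genes. Of the BMP and TGF-beta list, to which Vwc2l and its relatives belong, 14 genes passed the floor, 1 was 2-fold or more higher and none lower, with a median log2 ratio of 0.06. That gene was Bmper, and Fstl5, a follistatin-like protein, followed at a log2 ratio of 0.73. The receptor genes Tgfbr3 and Acvr1 had the lowest log2 ratios of the list, -0.84 and -0.72. Of 36 transcription factors, 7 were 2-fold or more higher and 7 lower, with a median of 0.23. Among the higher were Tox, an HMG box factor, at 756 against 189 CPM (log2 2.0, 1.88 to 2.12) and 757 CPM in cluster 10 against 756 CPM elsewhere. Tshz3, a paralogue of Tshz2, was at 364 against 97.6 CPM (log2 1.90), highest in the members of cluster 8 at 716 CPM. The other 5 were Tle4, Sox5, Ldb2, Meis2 and Cux2. Among the lower were Nfia, a nuclear factor I protein, at 108 against 326 CPM (log2 -1.59), with 106 CPM in cluster 10 and 110 CPM elsewhere. Zbtb20, a repressor active in hippocampal pyramidal neurons, was at 996 against 2844 CPM (log2 -1.51), with 981 and 1008 CPM.

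Receptors and channels gave more single genes than shared shifts. Of 21 glutamate receptor genes, 4 were higher and 1 lower with a median log2 ratio of -0.18: the metabotropic receptors Grm4 (2.43), Grm3 (1.89) and Grm8 (1.81) and the kainate receptor Grik3 (1.98, at 231 CPM, with 290 CPM in the Foxp2 nuclei) were higher, and Gria1, an AMPA receptor subunit, was lower at 1051 against 2831 CPM (-1.43). Of 34 potassium channel genes, 3 were higher and 2 lower, with Kcnip1, Kcnh5 (1.6) and Kcnk2 (1.36) above and Kcnmb2 and Kcnc2 (-1.28) below. Of 19 sodium and calcium channel genes, Cacnb4 was higher (1.10) and Cacna1h lower (-1.04). Cacna1h, at 20.7 against 42.7 CPM, passed the floor only through the other control nuclei. None of 14 GABA and glycine receptor genes was 2-fold higher or lower. Of 9 monoamine and acetylcholine receptor genes, Chrm2, a muscarinic receptor, was higher (1.80, at 160 against 45.8 CPM), as was Htr2c (1.5, at 390 against 137 CPM and 651 CPM in cluster 10), and Chrna7 was lower (-1.04). In the Foxp2 nuclei Chrm2 was at 145 CPM and Htr2c at 314 CPM. Of the 45 neuropeptide and peptide receptor genes measured only 4 passed the floor, and 3 were higher: Npsr1, the relaxin receptor Rxfp1 (1.45) and the orexin receptor Hcrtr2 (1.01). A share of 3 in 4 over so few genes describes those receptors and not peptide signalling as a whole.

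In the dystrophin complex list 2 of 13 genes were higher, both of them sarcoglycans. Sgcd, the delta-sarcoglycan of the dystrophin complex to which the panel gene Sntb1 belongs, was at 4045 against 945 CPM (log2 2.1, 2.05 to 2.15), with 7389 CPM in cluster 10 and 1576 CPM elsewhere. Sgcz, its zeta relative, was at 4185 against 1026 CPM (log2 2.03) with the opposite order, 3495 CPM in cluster 10 and 8350 CPM in the members of cluster 8. The median of the list was -0.05. Of 36 contactins, olfactomedins and synaptic organisers, 6 were higher and 1 lower, with a median of -0.02. Il1rapl2, a synaptic adhesion protein, was at 1233 against 293 CPM (log2 2.07), and Cntn4, a contactin, at 2260 against 745 CPM (1.6), with 3968 CPM in cluster 10. The lower gene was Cntnap5c (-1.66).

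Of 18 cadherins, 3 were higher and none lower, with a median of 0.32. Cdh22 had a log2 ratio of 1.55, at 67.0 against 22.9 CPM, and passed the floor only through the picked nuclei. Cdh20 had a log2 ratio of 1.36 that came from cluster 8, at 679 CPM. It reversed in the members of cluster 10, at 14.3 CPM against 93.8 CPM in the other control nuclei. Of 32 axon guidance genes only Sema5b was higher, and Sema5a (-1.44), Slit3 (-1.07) and Dscaml1 (-1.01) were lower, with a median of -0.37. Of 21 matrix genes 4 were higher and 4 lower. Fn1, fibronectin, was at 52.4 against 20.4 CPM (1.36) and passed the floor only through the picked nuclei. Gpc6, a glypican, had a log2 ratio of 1.55 with 2116 CPM in the members of cluster 8, and reversed in those of cluster 10 at 189 against 264 CPM. Of the immediate early genes 1 passed the floor, Nr4a3 at 58.5 against 46.8 CPM.

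The Foxp2 nuclei were the second reference, and 93 of the 115 lay in cluster 11. Foxp2, a forkhead transcription factor of layer 6 neurons that was one of the genes used to choose them, had a UMI in 71.3% of them and in 18.0% of the Vwc2l and Tshz2 nuclei. Depth was alike, with medians of 3208 and 3262 UMIs. The excluded genes were not demanded to be zero in the Foxp2 nuclei. Trps1 had a UMI in 60.9% of the Foxp2 nuclei, Glis3 in 21.7%, Gad2 in 7.83% and Gad1 in 6.96%. The summed 442026 UMIs of the 115 nuclei raised the floor to 45.2 CPM, and 3064 genes passed. Of these 58 were 2-fold or more higher (1.89%) and 55 lower (1.8%), 3.69% in either direction. With TMM scaling the counts were 70 and 44. Of the 58 higher genes, 42 were also higher in the members of cluster 10 alone, 31 in those elsewhere alone and 15 in both. The 58 too were called on the sum of both subsets, so these counts do not show how far the subsets agree.

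Of the 58 higher genes 22, and of the 55 lower genes 28, passed the floor only through the group where they were high, so they had to differ. Among the higher genes named next these are Pdzrn3, Kcnip1, Sema5b, Npsr1, Bmper, Meis2, Kcnk2, Unc13c and Grk5. Pdzrn3 had the largest ratio among named genes, 12.7 (7.30 to 24.1), at 373 against 29.4 CPM. Kcnip1 was at 292 against 36.2 CPM, a ratio of 8.08 (4.87 to 14.4), with 639 CPM in cluster 10 and 36.0 CPM in the other members, where the log2 ratio was -0.01. Sema5b had a ratio of 7.24 (3.69 to 16.2), Npsr1 one of 7.0 (3.69 to 14.9) and Bmper one of 6.23 (2.89 to 16.0), on 9, 10 and 7 UMIs in the Foxp2 nuclei. Tox, at 756 against 174 CPM, had a ratio of 4.34 (3.42 to 5.58) and was alike in both subsets. Kcnk2, a leak potassium channel, had a ratio of 4.90 (2.55 to 10.6), with 149 CPM in cluster 10 and 82.6 CPM elsewhere. Grk5, a kinase of G protein coupled receptors, had one of 4.04 (2.3 to 7.64), with 252 and 36.0 CPM.

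Meis2, a homeobox factor, had a ratio of 5.89 (3.63 to 10.2), with 51.6 CPM in cluster 10 and 560 CPM in cluster 8. Cdh20, Gpc6 and Unc13c, a regulator of vesicle release, had ratios of 4.85, 4.80 and 4.13 over all 239 nuclei. In the members of cluster 10 alone Cdh20 and Unc13c reversed, with log2 ratios of -1.80 and -0.83.

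Among the lowest genes, Col8a1, Cobll1, Sulf1, Itgbl1, Glra2 and Bmpr1b passed the floor only through the Foxp2 nuclei. Col8a1, a short-chain collagen, was at 8.53 against 83.7 CPM (log2 -3.30), and Cobll1, an actin-binding relative of Cobl, at 14.6 against 104 CPM (-2.83). Sdk2, a sidekick adhesion protein, was at 67.0 against 353 CPM (-2.40), Tmem132d at 101 against 414 CPM (-2.03) and Lhfpl3 at 84.1 against 319 CPM (-1.92). Sulf1, a heparan sulfate sulfatase, was at 26.8 against 99.5 CPM (-1.89), Itgbl1 at 30.4 against 106 CPM (-1.80) and Nfia at 108 against 317 CPM (-1.55). The glycine receptor gene Glra2 (-1.53), the guidance ligand Slit2 (-1.46), the BMP receptor gene Bmpr1b (-1.44) and the ephrin receptor gene Ephb1 (-1.39) completed the lower end. The lower level held in the members of cluster 10 and in those elsewhere for all 12 named genes. Several of these, such as Sdk2, Sulf1 and Col8a1, were higher in the 30 members of cluster 11 than in those of cluster 8, at 336, 97.6 and 65.1 CPM against 9.18, 4.59 and 0 CPM.

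**Figure D5:**
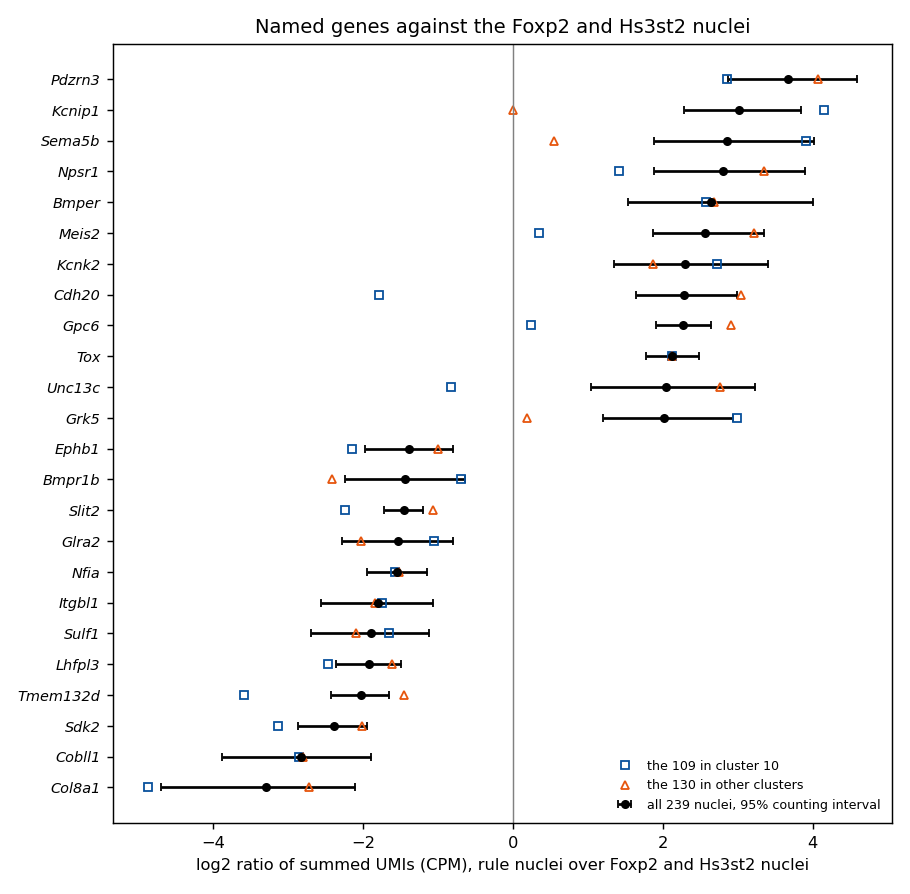
Log2 ratio of summed UMIs (horizontal axis) of the 12 highest and 12 lowest named genes in the Vwc2l and Tshz2 nuclei over the Foxp2 nuclei; points are all 239 nuclei with 95% counting intervals, squares the 109 in cluster 10 and triangles the 130 in other clusters. Cdh20 and Unc13c lie below 0 in cluster 10 and above 0 elsewhere, and the 12 lowest genes lie below 0 for all 3 marks.

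Counts by function against the Foxp2 nuclei stand beside shares of 1.89% higher and 1.8% lower over all genes. Of 27 potassium channel genes, 4 were higher and none lower (Kcnip1, Kcnk2, Kcnh5 at 1.94 and Kcnb2 at 1.02). Kcnip1, Kcnk2 and Kcnh5 passed the floor only through the picked nuclei. Of 28 axon guidance genes, 4 were higher (Sema5b, Sema6d at 1.24, Dcc at 1.17 and Epha3 at 1.07) and 3 lower (Slit2, Ephb1 and Sema3e at -1.05), with a median of 0.03. Of 17 cadherins, 3 were higher (Cdh20, Pcdh11x at 1.96 and Cdh8 at 1.03) and 3 lower (Cdh18 at -1.36, Cdh13 at -1.32 and Cdh6 at -1.12). In the members of cluster 11, Cdh18 and Cdh13 were above the Foxp2 nuclei, at 1334 against 1084 CPM and 553 against 471 CPM. Pcdh11x passed the floor only through the picked nuclei. It was at 22.9 CPM in the members of cluster 10, below the 43.0 CPM of the Foxp2 nuclei, and at 532 CPM in those of cluster 8. Both higher genes of 11 in the dystrophin list were again Sgcd (1.81) and Sgcz (1.24). Of 12 BMP and TGF-beta genes 2 were higher, Bmper and Fstl4 (1.44), and Fstl4 was at 40.1 CPM in cluster 10, below the 45.2 CPM of the Foxp2 nuclei. Of 20 glutamate receptor genes Grik1 was higher (1.41), at 379 CPM in cluster 10 and 33.9 CPM in the other members, the latter below the 67.9 CPM of the Foxp2 nuclei. Of 27 transcription factors Tox and Meis2 were higher and Nfia lower. Il1rapl2 (1.71) was the higher gene of 32 contactins and synaptic organisers, and Npsr1 of 3 peptide genes. Among 17 matrix genes Gpc6 and Hs6st3 (1.49) were higher, and Sulf1, Col19a1 (-1.17) and Adamts17 (-1.02) lower. Sulf1, Col19a1 and Adamts17 passed the floor only through the Foxp2 nuclei. In the members of cluster 11, Col19a1 was above the Foxp2 nuclei, at 195 against 90.5 CPM. Adamts17 was below them, at 10.8 against 83.7 CPM. None of 15 sodium and calcium channel genes and none of 6 monoamine and acetylcholine receptor genes was 2-fold higher or lower over all 239 nuclei. In the subsets some were, such as Htr2c in the members of cluster 10 (1.05) and Cacng3 in those elsewhere (1.07).

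The control nuclei came from a male and a female mouse, which can be told apart in part by Xist and 7 Y-linked genes. The Vwc2l and Tshz2 nuclei were 103 of 4725 nuclei that had Xist but no Y-linked UMI (2.18%, 1.78% to 2.64%) and 48 of 2201 nuclei that had a Y-linked UMI but no Xist (2.18%, 1.61% to 2.88%). They were 35 of 2232 nuclei with both (1.57%) and 53 of 1642 with neither (3.23%). The 2 clean groups had the same share within counting error. Of the 254 genes at least 2-fold different from all other control nuclei, 251 lay on the same side in both clean groups, and of the 113 different from the Foxp2 nuclei, 111 did. These genes were called on sums that hold both groups, so the counts are a description and support nothing. The named genes were picked by that agreement.

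In the library enriched for IL-33 neurons, the rule found 4 of 1079 nuclei (0.371%, 0.101% to 0.946%), against 2.21% (1.94% to 2.51%) in the control. With every nucleus thinned to 1700 UMIs the shares were 0.463% (0.151% to 1.08%) and 2.59% (2.3% to 2.91%). Both steps of the rule were lower: Vwc2l had a UMI in 116 of the 1079 nuclei (10.8%), against 17% of the control, and Vwc2l with at least 2 panel genes was found in 32 (2.97%, 2.04% to 4.16%), against 8.23% (7.72% to 8.77%). The libraries differed in sort, genotype and animals, so these cannot be told apart.

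The 4 nuclei had 2691, 2468, 4148 and 7750 UMIs and 2 panel genes each. They had 3, 2, 2 and 1 UMIs of Vwc2l and 9, 3, 16 and 2 of Tshz2. Sntb1 had 1 and 2 UMIs in the first pair, and Cntn6 1 and 2 in the last pair. Kcnh8, Olfm3 and Gm26883 had 0 in all 4. No nucleus of that library had Vwc2l, at least 3 panel genes and no excluded gene (0 of 1079, which allows a share of up to 0.341%), whereas 1.44% of the control nuclei did.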

How the data were processed

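Nuclear RNA of sorted hippocampal neuronal nuclei was measured in 2 libraries, 1 per group. The submitters' processing notes name Cell Ranger 2.1, STAR and Seurat 2.3.4, with mm10 or GRCm38 as the build, without saying what each was used for. The sources used here do not state whether introns or strand entered the counting. The deposited values are natural log values, which the authors computed from 1 plus a gene's UMIs scaled to 10000 per nucleus, judged from the values. Whole UMIs were recovered from the smallest step of each nucleus (100% within 0.01 of a whole number), since the planned comparisons needed sums of UMIs. Nuclei had at least 1001 genes and 1746 to 7998 UMIs in the control and 1726 to 7992 in the enriched library. A deposited scaled table of both libraries was not used here.

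UMIs were summed over nuclei and divided by the group's total. Ratios have 95% conditional binomial intervals, shares 95% exact Clopper-Pearson intervals, and all cover counting error only. Genes needed 20 expected UMIs in the smaller group, and 2-fold was the limit. Clusters used scanpy 1.11.5, 30 principal components, 15 neighbours and leidenalg 0.10.2 at resolution 0.8, and doublets Scrublet. The ratio code was tested on simulated data.

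The members, gene lists and comparisons were chosen with earlier results of these data known. Named genes lie on the same side in the Xist-only and Y-linked-only control nuclei: the 20 highest and 8 lowest against all other nuclei, the 12 highest and 12 lowest against the Foxp2 nuclei, and up to 2 at each end of each of 14 function lists, without the genes of the rule, sex-linked genes and unnamed gene models. Other genes are named as cell type markers, as leading genes of a cluster, or because a small count needed its members, the last chosen after their values were seen. Results for some genes are not reported here. Gene positions are from GENCODE M21.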

Additional observations from a re-analysis of the deposited data

How the results depend on the processing

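No paired analysis was possible because each group was 1 library with no shared replicates, and no replicate could be left out. Genes 2-fold or more higher and lower than all other control nuclei numbered 129 and 125. They numbered 5774 and 933 with no floor, 83 and 68 with a floor of 50 expected UMIs, 334 and 384 at a fold of 1.5, and 52 and 48 in Y-linked nuclei alone. Members outside cluster 10 alone gave 75 higher. TMM scaling gave 113 and 143. Against the Foxp2 nuclei the counts of 58 and 55 became 1055 and 1021 with no floor, 32 and 20 with a floor of 50, 224 and 231 at a fold of 1.5, and 25 and 28 in Y-linked nuclei. Lower genes numbered 36 in Xist nuclei, 85 with members of cluster 10 alone and 93 with members outside it. A higher floor tests fewer genes, no floor more, and a lower fold calls more by construction, while for the other settings the cause was not tested. Of 1548 values of named genes under alternatives, 1250 were the same and 288 moved without reversing. Another floor, no floor or another fold cannot change a gene's ratio, so those values stayed the same by construction. With members of cluster 10 alone 78 of 129 values moved, and with members outside it 55. Another 10 of the 1548 values reversed. Against all other nuclei these were Cdh20 (-2.71) and Gpc6 (-0.48) with members of cluster 10 alone, and Kremen1 (-1.85) and Kcnip1 (-0.94) with members outside it. Against the Foxp2 nuclei they were Cdh20 (-1.80), Unc13c (-0.83), Fstl4 (-0.17) and Pcdh11x (-0.91) with cluster 10 alone, and Kcnip1 (-0.0077) and Grik1 (-1.0) outside it. The members' share of the control, 2.21%, was 2.59% after thinning, 3.19% with 1 or more panel genes, 1.44% with 3 or more and 8.23% with no exclusion. After thinning 160 of the 239 nuclei were picked again and 120 others were added. The enriched share was 0 with 3 or more panel genes. The splits by cluster and the other clusterings were added after seeing the data.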
